A study of Homo sapiens with 9 samples.

Results

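Classical and basal-like are the names of the main transcript states of pancreatic ductal adenocarcinoma (PDAC), and 35 genes that mark them were followed here in 3 sublines of the human PDAC cell line SUIT-2. Of these genes, 21 are classical markers (BTNL8 to REG4 in a published tumour signature) and 14 are basal-like markers (VGLL1 to ANXA8L1 in its counterpart). They were taken by symbol, a rule that uses no measured value, though with earlier results of these data known, and all 35 were found among the 42717 genes of the count table. The sublines S2-007, S2-028 and S2-020 grew untreated in DMEM with fetal bovine serum, and 3 libraries of strand-specific mRNA were sequenced per line, 9 in all. The lines differ in maspin, a member of the serpin family of protease inhibitors, which lies in the nucleus and the cytoplasm of S2-007 cells, lies mainly in the cytoplasm of S2-028 cells and is weakly detected in S2-020 cells. S2-007 and S2-028 are known as highly invasive sublines. Each group is a single subline, so any difference between groups is a difference between these cell lines, and nothing in the labels says that the 3 libraries of a line came from separate cultures. The p-values therefore measure the spread between libraries, which may be technical.

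Classical tumours keep a glandular, gut-like programme. They express secreted mucosal peptides, mucin-associated chaperones and brush-border proteins, and factors such as GATA6, HNF4A and the FOXA family are tied to this state. Basal-like tumours lose part of that programme and express genes of stratified, squamous epithelium, such as cornified-envelope proteins and their protease inhibitors, together with genes of adhesion and growth factor signalling. Cell lines can carry genes of both states at the same time.

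Between 60328748 and 86253923 reads were counted in a library, and the 10 most abundant genes took 4.29% to 4.75% of it. Pearson's r of log2 CPM (counts scaled to library size, normalized by the TMM method) was 0.976 to 0.981 between libraries of the same line and 0.941 to 0.951 between lines. Between libraries of a line the chi-square statistic per gene reached at least 8.07, so that no pair agreed within sampling noise. All 5 epithelial markers (EPCAM, KRT8, KRT18, KRT19 and CDH1) were at or above 1 CPM in every library, with a summed level of 9480 to 9795 CPM in S2-007, 4218 to 5354 CPM in S2-020 and 14215 to 16950 CPM in S2-028. The markers of other cell types were low. The summed level over the 9 libraries was 2.40 to 5.68 CPM for 6 fibroblast genes, 1.32 to 2.35 CPM for 4 immune genes, 5.37 to 9.73 CPM for 3 endothelial genes, of which PECAM1 led, and 0.328 to 1.07 CPM for 4 acinar genes.

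Promoter sequences were matched by symbol to the RefSeq promoter table of GRCh38.p14, which held 13 of the 21 classical and 10 of the 14 basal-like markers. The 250 bases before the start of transcription are shown for 5 markers whose levels differed widely between the lines. Capitals mark motifs searched on both strands, which were CAAAGTNCA for HNF4, GTTAAT for HNF1, TGTTTAC for FOXA, TTTATGG for CDX, AGATAA for the GATA factors, TGANTCA for AP-1, GGAATG for TEAD and TATAAA for the TATA box. CLRN3 and ANXA10 are shown because both were highest in S2-007 and hold HNF1 and CDX letters side by side, AGR2 because it was present in S2-007 and S2-028 and nearly absent from S2-020, VGLL1 because it was abundant in S2-028 alone among the 3 lines, and S100A2 because it was the basal-like marker called higher in S2-020 than in both other lines.
CLRN3 (chr10:127892942-127893191, minus strand): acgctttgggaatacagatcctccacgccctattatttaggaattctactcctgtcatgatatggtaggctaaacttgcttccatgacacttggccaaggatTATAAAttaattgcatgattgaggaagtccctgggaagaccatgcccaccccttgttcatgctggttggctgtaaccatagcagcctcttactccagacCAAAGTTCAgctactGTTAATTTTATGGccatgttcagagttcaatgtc
ANXA10 (chr4:168092287-168092536, plus strand): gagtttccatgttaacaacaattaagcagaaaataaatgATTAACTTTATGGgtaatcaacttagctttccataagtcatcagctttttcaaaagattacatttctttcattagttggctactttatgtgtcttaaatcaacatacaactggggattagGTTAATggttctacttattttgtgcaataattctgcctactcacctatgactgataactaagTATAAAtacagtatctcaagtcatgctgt
AGR2 (chr7:16805000-16805249, minus strand): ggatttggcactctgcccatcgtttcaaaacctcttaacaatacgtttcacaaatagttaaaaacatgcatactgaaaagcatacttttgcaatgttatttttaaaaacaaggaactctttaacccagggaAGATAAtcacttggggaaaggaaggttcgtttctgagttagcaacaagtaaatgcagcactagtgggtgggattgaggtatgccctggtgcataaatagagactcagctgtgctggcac
VGLL1 (chrX:136531965-136532214, plus strand): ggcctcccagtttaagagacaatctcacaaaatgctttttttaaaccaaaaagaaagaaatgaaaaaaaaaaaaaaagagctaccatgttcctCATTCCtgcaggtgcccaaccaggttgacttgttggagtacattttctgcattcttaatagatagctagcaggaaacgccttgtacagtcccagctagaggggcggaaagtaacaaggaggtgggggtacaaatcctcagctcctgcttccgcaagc
S100A2 (chr1:153565845-153566094, minus strand): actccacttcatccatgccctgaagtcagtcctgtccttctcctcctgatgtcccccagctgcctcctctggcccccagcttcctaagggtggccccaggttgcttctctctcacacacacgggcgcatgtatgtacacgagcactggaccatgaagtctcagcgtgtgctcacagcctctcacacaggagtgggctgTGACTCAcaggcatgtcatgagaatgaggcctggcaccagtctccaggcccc

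Counted from the start, the CLRN3 promoter holds TATA box letters at -148, HNF4 letters at -49, HNF1 letters at -34 and CDX letters at -28. That of ANXA10 holds HNF1 letters at -211 and -91, CDX letters at -205 and TATA box letters at -29. The HNF1 and CDX matches adjoin in CLRN3 and in the more distant site of ANXA10. GATA letters lie at -119 of AGR2, TEAD letters at -157 of VGLL1 and AP-1 letters at -52 of S100A2. The 250 bases before the start of LGALS4, whose level also differed widely between the lines, held none of these motifs and are not shown. Motifs were counted over a longer window, from 250 bases before to 50 bases after the start. Among the matched promoters, HNF1 letters were present in 4 classical (CTSE, ANXA10, SPINK4 and CLRN3) and 0 basal-like markers, against 6.89% of all 27305 promoters in the table. CDX letters were present in 3 classical (REG4, ANXA10 and CLRN3) and 0 basal-like markers, against 2.66% of all promoters. AP-1 letters were present in 1 classical (REG4) and 4 basal-like markers (SPRR3, SPRR1B, S100A2 and SCEL), against 7.76%. HNF4 letters were found in 2 markers of each class (1.07% of all promoters), FOXA letters in 1 of each (3.41%), GATA letters in 3 classical and 0 basal-like (10.5%), TEAD letters in 2 classical and 3 basal-like markers (14%), and TATA box letters, at any place in the window, in 5 classical and 2 basal-like markers (12%). A match describes the letters of the window searched and shows no binding.

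S2-007 carried most of the classical and the basal-like markers at once, and S2-020 carried few of either class. S2-028 carried fewer classical markers than S2-007 but nearly as many basal-like markers. In every line a larger share of the basal-like than of the classical markers reached 1 CPM. Of the 21 classical markers, 11, 12 and 12 reached 1 CPM in the S2-007 libraries, against 5, 5 and 4 in S2-020 and 6, 7 and 6 in S2-028. Of the 14 basal-like markers, 9 reached 1 CPM in each S2-007 library, 4 in each S2-020 library and 8 in each S2-028 library. Of the 21 classical markers, 15 had their highest mean CPM in S2-007 and 12 had their lowest in S2-020, which are overlapping sets. Of the 14 basal-like markers, 7 were highest in S2-007 and 10 were lowest in S2-020. These ranks of means were not set beside those of all genes. They include markers near 0, such as SPRR3 (at most 8 counts in a library). They also include means that hardly differ, such as those of CTSV (7.34 CPM in S2-007 and 7.18 CPM in S2-020). Since the RNA was measured in bulk, fewer cells that express a gene and less RNA per cell cannot be told apart.

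**Figure D1:**
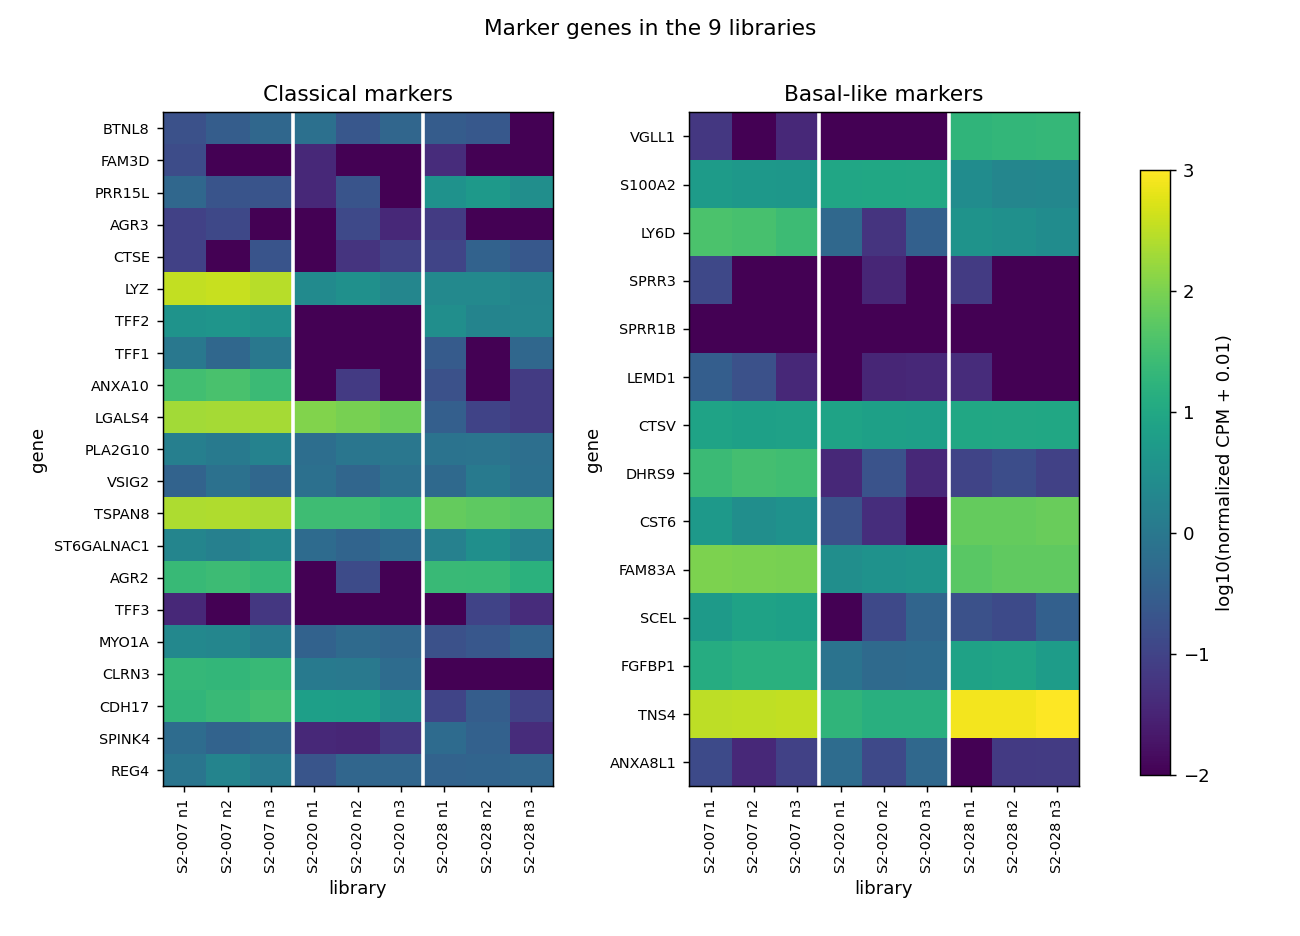
Level of each marker gene (rows) in each of the 9 libraries (columns, n1 to n3 of each line), as log10 of the normalized CPM plus 0.01, with the classical markers on the left and the basal-like markers on the right. LYZ, LGALS4 and TSPAN8 are bright in S2-007, the S2-020 columns are dark for most genes, and VGLL1, CST6 and TNS4 are brightest in S2-028.

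Relative to the length of the transcript, the order of the markers differed between the lines. In S2-007 the highest levels were those of the classical markers LYZ (226 CPM per kb, range 196 to 252), TSPAN8 (214 CPM per kb, range 205 to 226) and LGALS4 (187 CPM per kb, range 182 to 191), followed by the basal-like markers TNS4 (81.1 CPM per kb), LY6D (44.9 CPM per kb) and FAM83A (25.5 CPM per kb). The ranges of LYZ and TSPAN8 overlapped, whereas LGALS4 lay below TSPAN8 in every library. In S2-020 LGALS4 led (84.5 CPM per kb, range 67.9 to 99.98), followed by TSPAN8 (23.1 CPM per kb), S100A2 (9.80 CPM per kb) and TNS4 (3.82 CPM per kb), and these 4 genes did not overlap in range. In S2-028 the leading genes were the basal-like markers TNS4 (213 CPM per kb, range 197 to 243) and CST6 (115 CPM per kb, range 113 to 119). TSPAN8 (51.4 CPM per kb) was the highest classical marker there, ahead of VGLL1 (17.6 CPM per kb), FAM83A (15.1 CPM per kb) and AGR2 (12.4 CPM per kb).

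S2-028, with cytoplasmic maspin, was first set against S2-007, with nuclear and cytoplasmic maspin. A gene was called where the adjusted p was under 0.05 and the levels differed by 1.5-fold or more, which held for 18.4% of the 26371 genes tested, 10.2% being higher and 8.19% lower in S2-028. Of the 21 classical markers, 18 passed the filter on low counts, 10 were called lower in S2-028 and only PRR15L was called higher. Of the 14 basal-like markers, 10 passed the filter, 6 were called lower (S100A2, LY6D, DHRS9, FAM83A, SCEL and FGFBP1) and 3 were called higher (VGLL1, CST6 and TNS4). The median log2 difference was computed from log2 CPM. Over all members of a class, tested or not, it was -1.11 for the classical and -0.70 for the basal-like markers. Over all genes that passed the filter it was -0.03, so the sets are not chosen alike. The members that passed had to be expressed in at least part of the libraries, so these counts are a description of the 35 genes.

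S2-020, the line with little maspin, was set against each of the other lines with the same test. Against S2-007, 21.6% of 26657 genes were called, 9.57% higher and 12.1% lower in S2-020. There, 17 classical markers passed the filter, 14 were called lower and 0 higher, and 9 basal-like markers passed, of which 7 were called lower and 1 (S100A2) higher. By edgeR 0 of the tested classical markers were higher in S2-020 at an unadjusted p under 0.05, and by DESeq2 0 were called higher. In S2-028 against S2-020, 22.2% of 26031 genes were called, 12.1% higher and 10.1% lower in S2-028. Of the 14 classical markers that passed, 5 were called higher (PRR15L, TFF2, TSPAN8, ST6GALNAC1 and AGR2) and 3 lower (LGALS4, CLRN3 and CDH17), and of the 9 basal-like markers that passed, 6 were called higher (VGLL1, LY6D, CST6, FAM83A, FGFBP1 and TNS4) and 1 lower (S100A2). The 3 comparisons share libraries, each line entering 2 of them, so their values are given side by side and do not support each other. Counted over all members of a class, whether tested or not, the libraries of S2-028 lay above those of S2-007 without overlap for 1 classical and 4 basal-like markers and below them for 11 and 6, beside 21.0% and 22.7% of all genes tested. S2-020 lay above S2-007 for 0 and 1 markers and below for 14 and 7, beside 23.5% and 25.3% of genes, and S2-028 lay above S2-020 for 6 and 7 markers and below for 4 and 2, beside 24.5% and 24.1%.

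**Figure D2:**
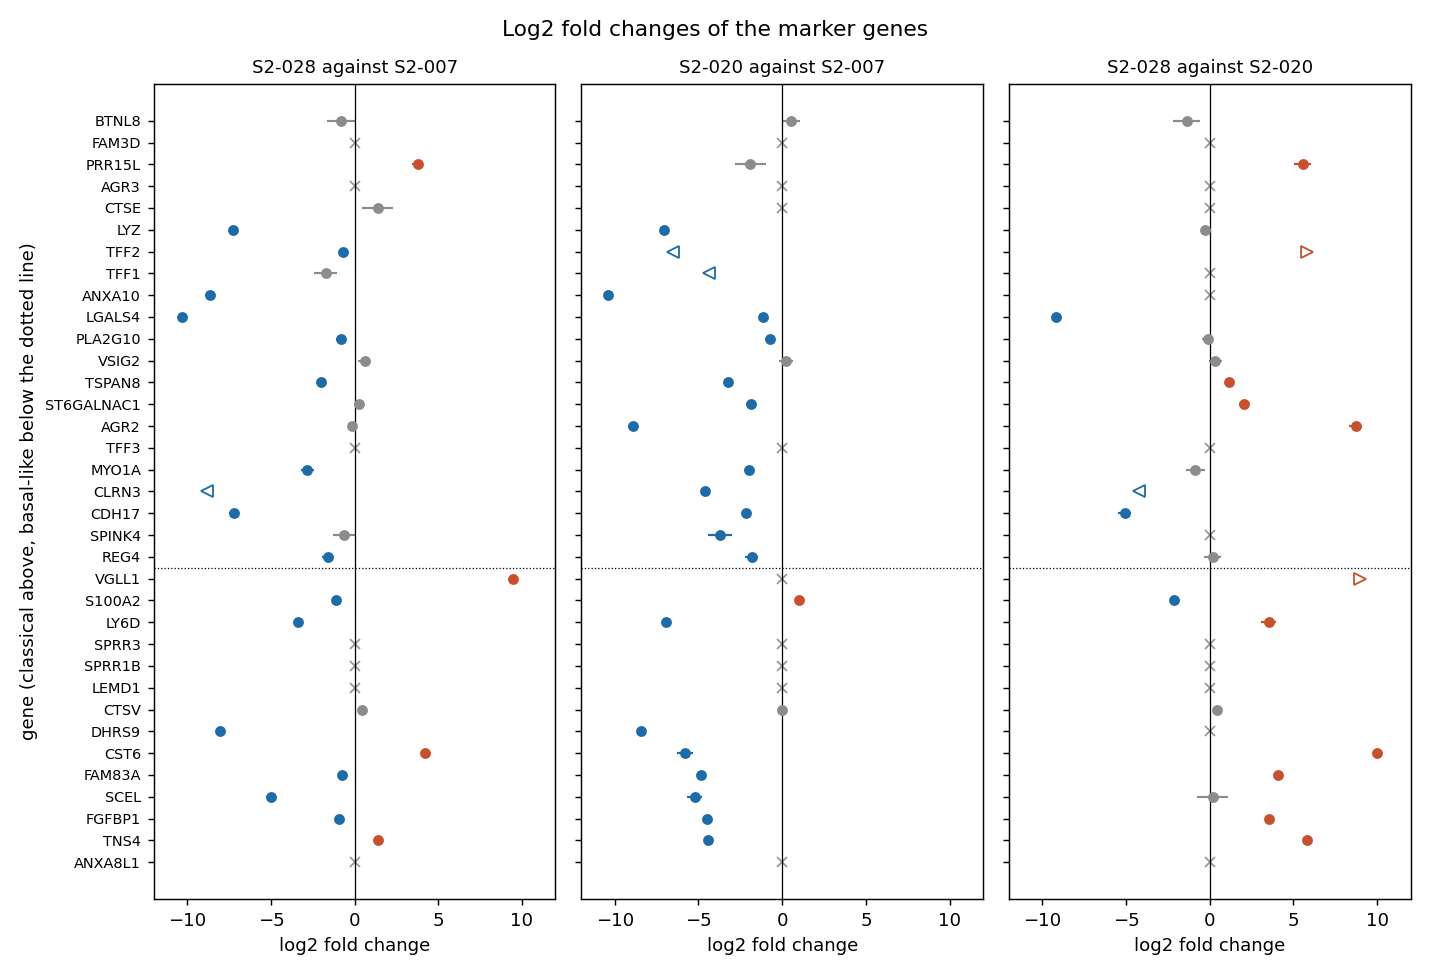
Log2 fold change (x axis) of each marker gene (y axis) in the 3 comparisons, first line minus second line, with the standard error derived from the F statistic as a bar. Orange points were called higher and blue points lower, grey points were tested and not called, crosses were not tested, and open triangles are lower bounds for genes with 0 counts in all libraries of a line. The blue points dominate in both comparisons against S2-007, and in S2-028 against S2-020 most of the called basal-like genes lie to the right.

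Among the secreted products of the classical set, lysozyme (LYZ, chr12:69348381-69354234), which degrades bacterial cell walls, was present at 343, 375 and 292 CPM in S2-007. It was at 2.49, 3.17 and 1.99 CPM in S2-020 and at 2.28, 2.26 and 1.80 CPM in S2-028. All S2-007 libraries lay above all others, and those of S2-020 and S2-028 overlapped. The log2 fold change was -7.29 ± 0.112 (SE, adjusted p = 1.22e-20) in S2-028 and -7.03 ± 0.125 (adjusted p = 2.36e-19) in S2-020, each against S2-007, and -0.28 ± 0.225 (adjusted p = 0.375) between S2-028 and S2-020. Here and below, the SE is the size of the log2 fold change divided by the square root of the test's F statistic. It is no fitted standard error, and where a line has a few reads it can be smaller than the counting error. LYZ, like some further markers, is given in full although it falls outside the rule for such genes. LYZ was chosen after its values were seen. An antisense gene lies over 34.7% of its exon bases, and whether the counting used strand is not given in the sources used here.

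The trefoil factors are small secreted peptides that protect and repair mucosa, and their genes lie next to each other on chromosome 21 (TFF3 chr21:42311667-42315409, TFF2 chr21:42346357-42350994, TFF1 chr21:42362282-42366535). TFF2 was counted 267, 295 and 240 times in S2-007, 0 times in each S2-020 library and 178, 118 and 116 times in S2-028. Its level in S2-020 was at least 92.2-fold lower than in S2-007 (adjusted p = 1.38e-11) and in S2-028 at least 55.7-fold higher than in S2-020 (adjusted p = 1.58e-09), where a floor of 3 counts per library stood for 0. Between S2-028 and S2-007 the difference was small, with 3.65, 4.03 and 3.25 CPM in S2-007, 2.88, 1.83 and 1.89 CPM in S2-028 and a log2 fold change of -0.70 ± 0.216 (adjusted p = 0.0146). That call was lost without S2-007 replicate 2 (log2 fold change -0.62, adjusted p = 0.0704), without S2-028 replicate 2 (-0.59, adjusted p = 0.0589) and without S2-028 replicate 3 (-0.60, adjusted p = 0.0617). TFF1 followed the same order, with 72, 34 and 72 counts in S2-007, 0 in each S2-020 library and 16, 0 and 28 in S2-028. It was at least 20.5-fold lower in S2-020 than in S2-007 (adjusted p = 8.72e-07), and its log2 fold change in S2-028 against S2-007 was -1.73 ± 0.675 (adjusted p = 0.0535), which became a call without S2-007 replicate 2 (-2.01, adjusted p = 0.0396) or without S2-028 replicate 3 (-2.61, adjusted p = 0.00955). Between S2-028 and S2-020 it did not pass the filter, but was called higher in S2-028 when S2-020 replicate 1, 2 or 3 (adjusted p = 0.0205, 0.0188 and 0.0175) or S2-028 replicate 2 (0.00112) was left out. TFF3 was at or near 0, with 2, 0 and 4 counts in S2-007, 0 in each S2-020 library and 0, 6 and 2 in S2-028, and could not be tested.

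AGR2 (chr7:16791811-16804999), a protein disulfide isomerase of the endoplasmic reticulum that is needed for mucin production, was at 23.8, 26.4 and 21.3 CPM in S2-007, 0, 0.131 and 0 CPM in S2-020 and 23.9, 23.8 and 15.6 CPM in S2-028. The libraries of S2-007 and S2-028 overlapped, and all S2-020 libraries lay far below. The log2 fold change was -8.91 ± 0.310 (adjusted p = 6.84e-15) in S2-020 against S2-007 and 8.72 ± 0.371 (adjusted p = 3.01e-13) in S2-028 against S2-020, values that rest on 11 reads in S2-020, all in replicate 2. Without that library S2-020 had 0 reads, and the fitted values (-13.77 and 13.45) are then no bounds. The log2 fold change was -0.15 ± 0.129 (adjusted p = 0.442) in S2-028 against S2-007. Its neighbour and relative AGR3 (chr7:16854681-16881983) had at most 10 counts in any library and could not be tested, so the genes of this pair were not expressed alike in S2-007 and S2-028.

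The other secreted classical products were low, as was the protease CTSE. SPINK4, a Kazal-type protease inhibitor of goblet cells, had 43, 28 and 36 counts in S2-007, 2, 2 and 4 in S2-020 and 34, 22 and 2 in S2-028. It was called lower in S2-020 than in S2-007 (log2 fold change -3.73 ± 0.716, adjusted p = 0.000245), and the S2-028 libraries spread over both ranges. Against S2-020, where it did not pass the filter, S2-028 was called higher without S2-020 replicate 3 (3.49, adjusted p = 0.0330) or S2-028 replicate 3 (3.60, adjusted p = 0.00400). REG4, a secreted lectin of the gut, had 63, 131 and 82 counts in S2-007, 14, 36 and 32 in S2-020 and 23, 26 and 27 in S2-028. It was lower than in S2-007 in S2-020 (-1.81 ± 0.388, adjusted p = 0.000712) and in S2-028 (-1.60 ± 0.368, adjusted p = 0.00149). PLA2G10, a secreted phospholipase, ranged from 79 to 122 counts in S2-007, 45 to 76 in S2-020 and 41 to 53 in S2-028. Its calls against S2-007 were close to the threshold (adjusted p = 0.0404 for S2-028 and 0.0492 for S2-020) and were lost when any library other than S2-007 replicate 2 was left out, as without S2-007 replicate 3 (log2 fold change -0.67, adjusted p = 0.168, and -0.55, adjusted p = 0.211). Of the 31-base stretches of its transcript, 58.1% also occur in other genes, mainly a near copy, so that its counts are uncertain. CTSE, a gastric-type aspartic protease, had at most 24 counts in a library and was not called, and FAM3D, a secreted cytokine-like protein of the gut, had 10, 0 and 0 counts in S2-007 and 2, 0 and 0 in each of the other lines.

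LGALS4, CLRN3 and CDH17, which act at the cell surface, were lowest in S2-028. Galectin 4 (LGALS4, chr19:38801674-38812945), a carbohydrate-binding lectin of gut epithelium, was at 205, 214 and 210 CPM in S2-007, 112, 95.9 and 76.1 CPM in S2-020 and 0.324, 0.0929 and 0.0653 CPM in S2-028. The lines did not overlap. The log2 fold change was -10.31 ± 0.163 (adjusted p = 1.32e-20) in S2-028 against S2-007, -1.15 ± 0.0901 (adjusted p = 2.13e-09) in S2-020 against S2-007 and -9.20 ± 0.223 (adjusted p = 7.18e-17) in S2-028 against S2-020. Without S2-028 replicate 1, which held 20 of the 30 reads of that line, the values for S2-028 were -11.31 against S2-007 and -10.19 against S2-020. CLRN3 (chr10:127877841-127892941), a membrane protein of the clarin family, had the same order, with 21.4, 20.7 and 23.4 CPM in S2-007, 1.07, 1.06 and 0.579 CPM in S2-020 and 0 in each S2-028 library. It was at least 456-fold lower in S2-028 than in S2-007 (adjusted p = 1.98e-16) and at least 18.8-fold lower than in S2-020 (adjusted p = 7.09e-07), and S2-020 lay between them (-4.59 ± 0.164 against S2-007, adjusted p = 9.66e-15). CDH17 (chr8:94127162-94217278), a cadherin of liver and intestine, was at 19.8, 24.2 and 30.05 CPM, 6.63, 6.44 and 3.18 CPM, and 0.0971, 0.294 and 0.0816 CPM in the 3 lines in that order. It was lower in S2-028 than in S2-007 by 150-fold (-7.23 ± 0.256, adjusted p = 2.77e-15) and lower than in S2-020 by 33.8-fold (-5.08 ± 0.386, adjusted p = 1.82e-09), and without S2-028 replicate 2, which held 19 of its 30 reads, the log2 fold changes were -8.07 and -5.89. MYO1A, a myosin of the brush border, was counted 156, 143 and 91 times in S2-007, 26, 44 and 32 times in S2-020 and 10, 14 and 22 times in S2-028, and was called lower than in S2-007 in both S2-020 (log2 fold change -1.998 ± 0.308) and S2-028 (-2.82 ± 0.375).

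The tetraspanin TSPAN8 (chr12:71125096-71157999), a membrane protein of exosomes and gut epithelium, had another order. It was at 238, 256 and 232 CPM in S2-007, 28.5, 28.2 and 21.8 CPM in S2-020 and 66.2, 58.1 and 50.1 CPM in S2-028, without overlap. S2-028 was lower than S2-007 (-2.03 ± 0.0814, adjusted p = 2.19e-14) and higher than S2-020 (1.15 ± 0.102, adjusted p = 1.86e-08), and S2-020 was lower than S2-007 (-3.21 ± 0.0835, adjusted p = 8.04e-17). ST6GALNAC1, the sialyltransferase that makes the sialyl-Tn antigen, was at 1.89, 1.48 and 2.07 CPM in S2-007, 0.554, 0.404 and 0.551 CPM in S2-020 and 1.55, 3.14 and 1.63 CPM in S2-028. S2-020 lay below the overlapping S2-007 and S2-028 libraries (-1.85 ± 0.286 against S2-007, adjusted p = 2.14e-05, and 2.07 ± 0.327 for S2-028 against S2-020, adjusted p = 3.11e-05).

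ANXA10 (chr4:168092537-168187736), an annexin of gastric epithelium, was nearly confined to S2-007 among the 3 lines, at 30.8, 36.7 and 26.1 CPM, against 0, 0.0594 and 0 CPM in S2-020 and 0.162, 0 and 0.0653 CPM in S2-028. The log2 fold change was -10.37 ± 0.288 (adjusted p = 2.15e-16) in S2-020 and -8.64 ± 0.280 (adjusted p = 6.38e-16) in S2-028. These rest on 5 reads in S2-020, all in replicate 2, and 14 in S2-028. Without S2-020 replicate 2 the fitted value (-14.15) is against 0 reads and no bound, and in S2-028 it was -9.83 without replicate 1 and -8.06 without replicate 2. PRR15L went the other way, at 0.465, 0.191 and 0.19 CPM in S2-007, 0.0277, 0.19 and 0 CPM in S2-020 and 3.48, 4.96 and 2.89 CPM in S2-028. It was the only classical marker called higher in S2-028 than in S2-007 (3.76 ± 0.337, adjusted p = 9.6e-09) and was also higher than in S2-020 (5.57 ± 0.512, adjusted p = 2.78e-08). Without S2-020 replicate 2, which held 16 of the 18 reads of that line, the latter was 7.90 and the difference between S2-020 and S2-007 became a call (-4.19, adjusted p = 0.0139, in place of -1.89, adjusted p = 0.123). VSIG2 and BTNL8, surface proteins of the immunoglobulin family, were low in all lines (28 to 72 and 0 to 49 counts per library) and were not called in any comparison.

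**Figure D3:**
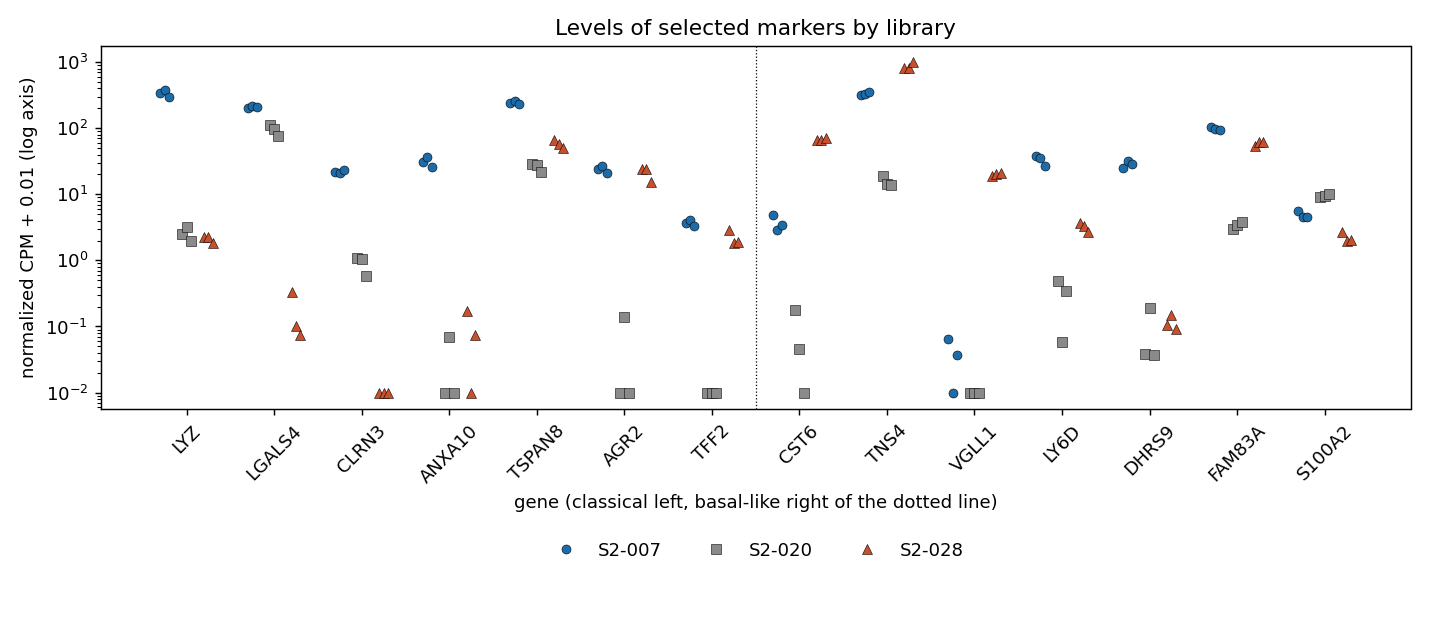
Normalized CPM plus 0.01 on a log axis (y) for 7 classical markers (left of the dotted line) and 7 basal-like markers (right), with a point for each of the 3 libraries of S2-007 (circles), S2-020 (squares) and S2-028 (triangles). LGALS4 is high in S2-007 and S2-020 and near 0 in S2-028, AGR2 and TFF2 are present in S2-007 and S2-028 and near 0 in S2-020, and VGLL1 is high in S2-028 alone.

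VGLL1, CST6 and TNS4 were the basal-like markers that rose in S2-028 against both other lines. VGLL1 (chrX:136532215-136556799), a cofactor of the TEAD transcription factors, was at 18.9, 20.4 and 20.9 CPM in S2-028, while 4, 0 and 2 reads were counted in S2-007 and 0 in each S2-020 library. S2-028 was higher than S2-007 by 9.46 ± 0.268 on the log2 scale (adjusted p = 8.73e-17), a size that rests on 6 reads in S2-007 and was 10.37 without S2-007 replicate 1, and at least 508-fold higher than S2-020 (adjusted p = 1.33e-15). Cystatin E/M (CST6, chr11:66012008-66013505), an inhibitor of cysteine proteases in the epidermis, was at 4.89, 2.88 and 3.48 CPM in S2-007, 0.166, 0.0356 and 0 CPM in S2-020 and 66.8, 66.9 and 70.5 CPM in S2-028. The lines did not overlap, and the log2 fold change was 4.21 ± 0.129 (adjusted p = 2.88e-16) in S2-028 and -5.80 ± 0.481 (adjusted p = 4.67e-09) in S2-020, each against S2-007, and 9.97 ± 0.220 (adjusted p = 1.93e-17) in S2-028 against S2-020. The sizes against S2-020 rest on 15 reads, and without S2-020 replicate 1 they were -7.50 for S2-020 against S2-007 and 11.65 for S2-028 against S2-020. TNS4 (chr17:40475834-40501623), a member of the tensin family, was the highest basal-like marker per kb in S2-007 and S2-028 and lay below S100A2 in S2-020. Its levels were 315, 326 and 354 CPM in S2-007, 18.6, 14.1 and 14.03 CPM in S2-020 and 805, 817 and 991 CPM in S2-028, again without overlap. S2-028 was 2.68-fold higher than S2-007 (adjusted p = 1.3e-12) and 55.7-fold higher than S2-020 (adjusted p = 1.43e-18), and S2-020 was 21.3-fold lower than S2-007 (adjusted p = 2.93e-18). CST6 and TNS4 were thus higher in S2-028 and lower in S2-020 than in S2-007.

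Cathepsin V (CTSV), a cysteine protease of keratinocytes and a target of cystatin E/M, varied little. It was at 7.79, 7.09 and 7.14 CPM in S2-007, 8.04, 6.79 and 6.71 CPM in S2-020 and 9.36, 9.79 and 9.68 CPM in S2-028. The S2-028 libraries lay above all others, with a log2 fold change of 0.41 ± 0.124 against S2-007 (adjusted p = 0.0120) and of 0.41 ± 0.124 against S2-020 (adjusted p = 0.0106), which is under the size needed for a call.

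FAM83A, LY6D and FGFBP1 were highest in S2-007, lowest in S2-020 and intermediate in S2-028. FAM83A (chr8:123179047-123210079), which acts in signalling downstream of the EGF receptor, was at 105, 97.5 and 94.7 CPM in S2-007, 2.94, 3.46 and 3.82 CPM in S2-020 and 53.5, 60.9 and 61.3 CPM in S2-028. The lines did not overlap, and S2-028 was 1.66-fold lower than S2-007 (adjusted p = 2.27e-08) and 17.1-fold higher than S2-020 (adjusted p = 1.46e-16). LY6D (chr8:142784882-142786539), a lipid-anchored surface protein of stratified epithelium, was at 38.3, 35.3 and 27.2 CPM in S2-007, 0.471, 0.0475 and 0.331 CPM in S2-020 and 3.66, 3.28 and 2.69 CPM in S2-028. It was 10.3-fold lower in S2-028 than in S2-007 (adjusted p = 3.81e-14) and 11.5-fold higher than in S2-020 (adjusted p = 1.07e-06), while S2-020 was 123-fold lower than S2-007 (adjusted p = 2.36e-14). Without S2-020 replicate 1 the log2 fold change was 4.11 in S2-028 against S2-020, in place of 3.52, and -7.53 in S2-020 against S2-007, in place of -6.94. FGFBP1, which releases fibroblast growth factors from the matrix, was at 12.4, 14.7 and 14.7 CPM, 0.775, 0.523 and 0.551 CPM, and 7.48, 8.24 and 5.92 CPM in the 3 lines in that order. S2-028 was 1.90-fold lower than S2-007 (adjusted p = 9.07e-06) and 11.7-fold higher than S2-020 (adjusted p = 7.29e-11). Antisense genes lie over 14.4% of the exon bases of LY6D and 11% of those of FAM83A.

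DHRS9 and SCEL were near 0 in both S2-020 and S2-028. DHRS9 (chr2:169067077-169096167), a dehydrogenase of retinol and steroids, was at 25.1, 32.2 and 28.8 CPM in S2-007, 0.0277, 0.178 and 0.0276 CPM in S2-020 and 0.0971, 0.139 and 0.0816 CPM in S2-028. It was 260-fold lower in S2-028 (-8.02 ± 0.197, adjusted p = 9.41e-18) and 340-fold lower in S2-020 (-8.41 ± 0.246, adjusted p = 4.78e-16) than in S2-007. The size in S2-020 rests on 19 reads, 15 of them in replicate 2, without which it was -9.93. Sciellin (SCEL), a precursor of the cornified envelope, was at 5.30, 7.53 and 6.97 CPM in S2-007, 0, 0.119 and 0.414 CPM in S2-020 and 0.162, 0.124 and 0.326 CPM in S2-028. It was 31.6-fold lower in S2-028 (adjusted p = 1.08e-11) and 37.3-fold lower in S2-020 (-5.22, adjusted p = 7.69e-09), and the libraries of these lines overlapped. Without S2-020 replicate 3, which held 30 of the 40 reads of that line, the log2 fold change in S2-020 was -6.66.

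S100A2 (chr1:153561108-153565844), a calcium-binding protein of basal and squamous cells, had an order of its own among the called members. It was at 5.51, 4.61 and 4.46 CPM in S2-007, 9.10, 9.53 and 10.1 CPM in S2-020 and 2.69, 1.94 and 2.06 CPM in S2-028, without overlap. The log2 fold change was 0.98 ± 0.130 (adjusted p = 3.25e-06) in S2-020 and -1.10 ± 0.195 (adjusted p = 0.000105) in S2-028, each against S2-007, and -2.11 ± 0.158 (adjusted p = 1.43e-09) in S2-028 against S2-020.

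The genes of the small proline-rich proteins of the cornified envelope were at or near 0. SPRR1B had 0 counts in all 9 libraries, and SPRR3 had 8, 0 and 0 counts in S2-007, 0, 2 and 0 in S2-020 and 4, 0 and 0 in S2-028. LEMD1, a cancer-testis antigen, had 22, 12 and 2 counts in S2-007, 0, 2 and 2 in S2-020 and 2, 0 and 0 in S2-028. It did not pass the filter, and came to be called lower without S2-007 replicate 3 in S2-028 (-4.20, adjusted p = 0.0237) and in S2-020 (-3.59, adjusted p = 0.0266), and without S2-028 replicate 1 in S2-028 (adjusted p = 0.0318). ANXA8L1, an annexin, had 9, 2 and 6 counts in S2-007, 41, 10 and 35 in S2-020 and 0, 4 and 4 in S2-028. Of the 31-base stretches of its transcript, 92% also occur in other genes, ANXA8 first, so that reads of the copies cannot be separated by these counts. It did not pass the filter in any comparison, but was called higher in S2-020 than in S2-007 when S2-007 replicate 1 (2.80, adjusted p = 0.0227) or S2-020 replicate 2 (2.74, adjusted p = 0.00819) was left out, and lower in S2-028 than in S2-020 without S2-020 replicate 2 (-3.58, adjusted p = 0.00454) or without S2-028 replicate 1, 2 or 3 (-2.58, -3.50 and -3.55).

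The same signatures hold genes that are not among the 35. The share of all tested genes beside which these counts are read was 10.2% higher and 8.19% lower in S2-028 against S2-007, 9.57% and 12.1% in S2-020 against S2-007, and 12.1% and 10.1% in S2-028 against S2-020. Of 3 further classical genes, 2 were called lower in S2-028 and 2 in S2-020 than in S2-007. CEACAM6, a cell-surface adhesion molecule of mucosa, was at 969, 949 and 755 CPM in S2-007, 1.01, 0.523 and 0.386 CPM in S2-020 and 622, 534 and 509 CPM in S2-028. S2-028 lay slightly below S2-007 (-0.66 ± 0.0831, adjusted p = 1.54e-06) and far above S2-020 (9.76 ± 0.153, adjusted p = 1.53e-19). KRT20, an intestinal keratin, was under 1 CPM in every library, and its call in S2-028 against S2-007 (-1.59 ± 0.559, adjusted p = 0.0316) was lost without S2-007 replicate 1 or 2 or S2-028 replicate 1 or 3 (adjusted p = 0.0589, 0.190, 0.107 and 0.0526). In S2-020 against S2-007 its call (-1.62 ± 0.523, adjusted p = 0.0173) was lost without S2-007 replicate 2 or S2-020 replicate 1 or 3 (adjusted p = 0.126, 0.0535 and 0.0538).

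Of 11 further basal-like genes, 7 passed the filter in each comparison against S2-007 and 6 in S2-028 against S2-020. In S2-028 against S2-007, 4 were called higher, UCA1, KRT7 and AREG among them, and 1 lower. Over all 11 genes, tested or not, the median log2 difference there, computed from log2 CPM, was -0.30. In S2-020 against S2-007, 0 were called higher and 6 lower, and in S2-028 against S2-020, 5 higher and 0 lower. By DESeq2 these counts of 0 were also 0, and at an unadjusted p under 0.05 by edgeR they were 0 and 1. UCA1, a long non-coding RNA, was at 62.9, 55.3 and 46.3 CPM in S2-007, 0.0692, 0.0832 and 0.0689 CPM in S2-020 and 344, 386 and 319 CPM in S2-028. The lines did not overlap, and S2-028 was 6.49-fold higher than S2-007 (adjusted p = 1.84e-15). Antisense genes lie over 26.1% of its exon bases. KRT7, a keratin of ductal epithelium, was 3.68-fold higher in S2-028 than in S2-007 (870.9 ± 87.3 against 240.8 ± 17.9 CPM, SD, n = 3 per line) and was at 46.1 ± 6.25 CPM in S2-020. AREG, a ligand of the EGF receptor, was 3.69-fold higher in S2-028 than in S2-007 (212.9 ± 7.66 against 58.8 ± 8.08 CPM) and was at 24.6 ± 1.93 CPM in S2-020.

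A second classical signature, of which 15 genes are not among the 35, was called higher for 3 and lower for 9 genes in S2-028 against S2-007, for 0 and 11 genes in S2-020 against S2-007, and for 8 and 2 genes in S2-028 against S2-020. CEACAM5, the carcinoembryonic antigen, was at 16.9 ± 2.48 CPM in S2-007, 0.366 ± 0.0971 CPM in S2-020 and 0.840 ± 0.180 CPM in S2-028. It was 19.8-fold lower in S2-028 than in S2-007 (adjusted p = 3.52e-14), and its call in S2-028 against S2-020 (1.18, adjusted p = 0.0238) was lost without S2-020 replicate 1 or 3 or S2-028 replicate 1 or 3 (adjusted p = 0.0800, 0.0665, 0.0872 and 0.0696). GPX2, a glutathione peroxidase of gut epithelium, was at 143.8 ± 14.1 CPM in S2-007, 0.155 ± 0.0462 CPM in S2-020 and 54.0 ± 3.17 CPM in S2-028, and TMEM45B had the same order at 108.4 ± 9.21, 1.03 ± 0.244 and 35.1 ± 1.23 CPM. MUC13, a membrane mucin, was lowest in S2-028 instead, at 6.91 ± 0.441 CPM in S2-007, 1.07 ± 0.657 CPM in S2-020 and 0.0951 ± 0.0613 CPM in S2-028. Of 19 genes of a quasi-mesenchymal signature, 5 were called higher and 3 lower in S2-028 against S2-007, 6 higher and 2 lower in S2-020 against S2-007, and 2 higher and 4 lower in S2-028 against S2-020. The 2 lower in S2-020 against S2-007 and the 2 higher in S2-028 against S2-020 are each 10.5% of the list, near the 12.1% of all tested genes called in that direction in each comparison. SLC2A3, a glucose transporter, was at 0.318 ± 0.0872 CPM in S2-007, 48.2 ± 12.9 CPM in S2-020 and 7.35 ± 0.982 CPM in S2-028. CAV1, the main protein of caveolae, was at 204.6 ± 32.7, 517.4 ± 40.3 and 905.1 ± 39.4 CPM, and PHLDA1 was at 316.1 ± 13.6, 313.2 ± 14.6 and 650.3 ± 14.2 CPM, whereas AHNAK2 was lowest in S2-028 (406.5 ± 9.10, 540.6 ± 31.9 and 70.5 ± 1.28 CPM).

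**Figure D4:**
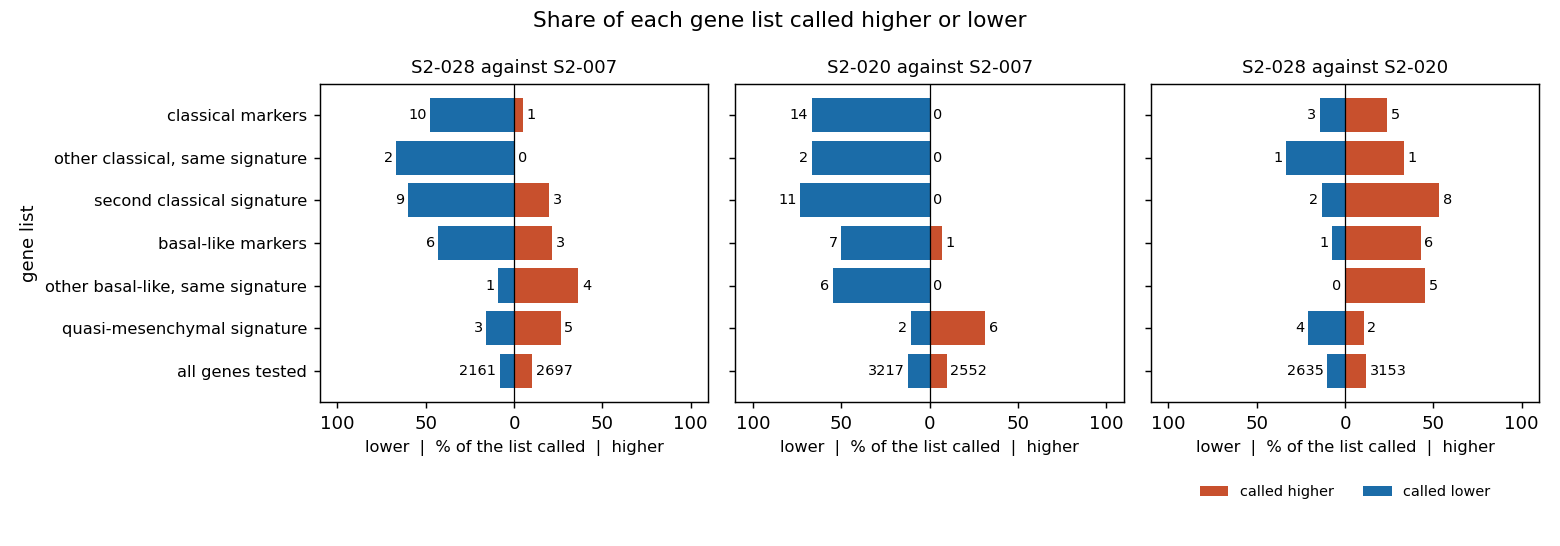
Percent of the genes of each list (y axis) called higher (orange, to the right) or lower (blue, to the left) in each of the 3 comparisons, with the number of genes at the end of each bar, and in the bottom row the percent of all genes tested. Of the basal-like markers, 7 were called lower in S2-020 against S2-007 and 6 were called higher in S2-028 against S2-020.

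Of 10 transcription factors tied to the classical state, 3 were called higher and 4 lower in S2-028 against S2-007, 1 higher and 5 lower in S2-020 against S2-007, and 2 higher and 3 lower in S2-028 against S2-020. The 1 higher in S2-020 against S2-007 is 10% of the list, beside 9.57% of all tested genes, and the other shares were 20% to 50%, beside 8.19% to 12.1%. HNF4A, a nuclear receptor of gut and liver epithelium, was at 230, 228 and 238 CPM in S2-007, 30.2, 27.5 and 26.1 CPM in S2-020 and 27.3, 25.8 and 21.7 CPM in S2-028. It was 9.13-fold lower in S2-028 (adjusted p = 7.99e-18) and 8.31-fold lower in S2-020 (adjusted p = 1.85e-18) than in S2-007, and the libraries of S2-020 and S2-028 overlapped. CDX2, the intestinal homeobox factor, was at 26.9 ± 0.988 CPM in S2-007, 16.96 ± 2.89 CPM in S2-020 and 9.52 ± 1.09 CPM in S2-028, and its call in S2-020 against S2-007 (-0.67 ± 0.102) fell below the size needed without S2-020 replicate 3 (-0.54). FOXA2 went from 2.57 ± 0.307 CPM in S2-007 to 1.19 ± 0.116 CPM in S2-020 and 13.5 ± 0.354 CPM in S2-028. Of 4 factors tied to the basal-like state (TP63, GLI2, ZNF750 and FOSL1), 0 were called in S2-028 against S2-007 by edgeR or DESeq2, where 1 had an unadjusted p under 0.05, 1 was called lower in S2-020 against S2-007 and 1 higher in S2-028 against S2-020.

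The epithelial markers differed between the lines too, and their part in the values above was not tested. Of these 5 genes, 3 were called higher in S2-028 than in S2-007, 4 lower in S2-020 than in S2-007 and 5 higher in S2-028 than in S2-020. The shares of all tested genes called in these directions were 10.2%, 12.1% and 12.1%, in that order. E-cadherin (CDH1), the main adhesion molecule of epithelium, was at 55.0 ± 2.97 CPM in S2-007, 4.50 ± 0.278 CPM in S2-020 and 112.0 ± 6.35 CPM in S2-028. KRT8 and KRT18, the keratins of simple epithelium, were at 4873 ± 152 and 2041 ± 84.0 CPM in S2-007, 2885 ± 363 and 1667 ± 198 CPM in S2-020 and 8421 ± 812 and 4824 ± 446 CPM in S2-028. No batch is named in the labels, and each line was measured as its own group of libraries, so a batch effect between lines and the lines themselves cannot be told apart.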

How the data were processed

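Poly(A)-selected, strand-specific mRNA of 3 sublines, 3 libraries each, was sequenced. Per the submitters' processing notes, Trimmomatic 0.39, BWA 0.7.17, SAMtools 1.12 and edgeR 3.16.5 were used, with GRCh38.p14. The authors deposited whole-number counts of reads mapped to each gene, and 18 columns of normalized signal, which the authors computed from the counts and which were not used. The counting tool and its treatment of strand and multiple matches are not given in the sources used here. Of the values from 1 to 10 counts, 78.7% were even. What made them even was not tested, and a few reads need not be as many separate RNA fragments. Closing lines of the table without a gene name (a library sum and ratio) were left out. An aligner that does not splice, such as BWA, can lose reads that span an intron.

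Samples were grouped by their titles. The analysis used edgeR 4.0.16 under R 4.3.3. Low genes were removed by filterByExpr (minimum count 10, minimum total 15), and the rest were normalized by TMM and tested by the quasi-likelihood F-test across all genes, with the 6 libraries of the lines compared, Benjamini-Hochberg adjustment and no covariate. A fold against a line at 0 counts is a bound at 3 counts per library, which covers counting error only, and fitted folds of lines with a few counts depend on the prior count. The SE of a log2 fold change is its absolute value divided by the square root of the F statistic, and can be too small for such lines. CPM use TMM factors of all 9 libraries, and log2 CPM a prior count of 2. Lengths are those of GENCODE canonical transcripts, coordinates and promoters those of RefSeq. The fit was tested on simulated data. Alternatives were RLE factors, no filter, the likelihood ratio test, DESeq2 1.42.0, all 9 libraries, a replicate block and leaving out each library.

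The 35 markers and all lists were chosen with earlier results of these data known. All 35 are named. By rule, values per library are given for the 6 largest changes of each class, for markers called in opposite directions and for markers at or under 3 counts in a line. Some markers outside this rule, such as LYZ, CDH17, REG4, MYO1A and CTSV, are also given per library. At most 4 called genes of each other list, those with the smallest adjusted p in S2-028 against S2-007, are named. Some genes of these other lists that the rule would name are not reported here.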

Additional observations from a re-analysis of the deposited data

How the results depend on the processing

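Most results did not depend on the processing. Over the alternatives, among named genes tested in a comparison, 1620 log2 fold changes kept their direction and their side of the thresholds, 33 lost a call, 8 gained a call and 19 changed sign. Markers that had not passed the filter in a comparison became calls there 25 times (ANXA8L1, LEMD1, SPINK4, TFF1 and VGLL1), and 134 of the counts of markers called stayed within 1.5 times their value while 10 did not. All 72 counts over all genes stayed within 1.5 times.

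The basal-like markers called higher in S2-020 against S2-007 became 2 (ANXA8L1 added) without the expression filter and by DESeq2, and 1 to 2 when a library was left out. The basal-like markers called lower in S2-028 against S2-020 likewise became 2 without the filter and by DESeq2, and 1 to 2 when a library was left out, so that the count of 2 arises where ANXA8L1, which shares its sequence with copies, is tested. The median log2 CPM of the classical markers in S2-028 was -1.52 with a prior count of 0.5, in place of -1.44. Without ANXA8L1 the median of the basal-like markers was 2.81 in S2-007 and 1.73 in S2-028, in place of 2.49 and 1.35.

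The calls of PLA2G10 were lost under most alternatives. With the replicate number as a block its adjusted p was 0.0580 in S2-028 and 0.0621 in S2-020, each against S2-007, and TFF1 became a call in S2-028 against S2-007 (log2 fold change -2.14, adjusted p = 0.00722). Among named genes the block changed 0 results in S2-028 against S2-020. Over the genes that passed the filter, libraries with the same number did not deviate together (correlation of deviations -0.021 to 0.015). Whether they share more than a number is not given in the labels. TFF1 was also called with RLE factors (adjusted p = 0.0453), without the filter (0.00230) and by the likelihood ratio test (0.0220). With all 9 libraries in the fit, PRR15L became a call in S2-020 against S2-007 (-1.81, adjusted p = 0.0235). TFF1 and SPINK4 became calls in S2-028 against S2-020 without the filter (adjusted p = 0.000265 and 0.00891), and VGLL1 in S2-020 against S2-007 with all 9 libraries (0.0267).

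Sign changes were all of uncalled differences. For S2-020 against S2-007, PHLDA1 was 0.017 with RLE factors, 0.018 by DESeq2 and 0.018 with all 9 libraries, and CTSV was 0.000283 by DESeq2. When a library was left out, the ranges that crossed 0 were -0.17 to 0.43 for ST6GALNAC1 and -0.25 to 0.0278 for AGR2 in S2-028 against S2-007, -0.12 to 0.0201 for CTSV and -0.0401 to 0.0399 for PHLDA1 in S2-020 against S2-007, and -0.0263 to 0.56 for VSIG2, -0.11 to 0.36 for REG4, -0.39 to 1.70 for SCEL and -0.29 to 0.37 for KRT20 in S2-028 against S2-020. The cause was not tested. Of the 35 markers, 3 classical and 4 basal-like passed the filter in no comparison, and whether a gene with a few counts was tested depended on the filter.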
